A study of Mus musculus with 4 samples.

Results

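The 8 genes of the MHC class II antigen presentation pathway followed here in mouse liver were H2-Aa, H2-Ab1, H2-Eb1, Cd74, H2-DMa, H2-DMb1, Ciita and Ctss. They were chosen by gene symbol from a deposited table of 23920 genes, and all 8 were found, in 14 transcript rows that were summed per gene. The samples were livers of C57BL/6 males aged 12 weeks that had gone without food for 24 h and had then been refed for 12 h. There were 2 wild-type (WT, genotype SREBP1c WT) and 2 knockout (KO, genotype SREBP1c KO) libraries, and genotype was the only labelled difference between them. SREBP1c is a transcription factor that drives lipogenic genes in liver after a meal. How the knockout allele was made, and whether a library was 1 animal or a pool, is not given in the sources used here, so the p-values reflect only how far these libraries spread, which may be technical.

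Class II molecules display peptides from endocytosed proteins to CD4+ T cells. An alpha and a beta chain assemble in the endoplasmic reticulum around the invariant chain, which the lysosomal protease cathepsin S trims and the chaperone H2-DM helps to replace with peptide. In liver these genes are known chiefly from Kupffer cells, dendritic cells, B cells and, at lower levels, sinusoidal endothelium, and their transcription depends on the coactivator CIITA, which interferon gamma induces. Mice of the H2b haplotype, such as C57BL/6, do not express the H2-Ea chain that partners H2-Eb1.

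CIITA acts on promoters through an enhanceosome of RFX, CREB and NF-Y factors bound to the X and Y boxes. The 150 bases before the start of 3 members are shown because these members were higher in each KO library than in either WT library and hold both boxes in the same order. Sequences are from RefSeq (GRCm38.p6) and read 5′ to 3′ on the strand of the gene. Capitals mark the letters CTNGNAAC, part of the X box, and TGATTGG, part of the Y box, in that order. Coordinates are chr17:34287824-34287973 on the minus strand for H2-Aa, chr17:34305717-34305866 on the plus strand for H2-Eb1 and chr17:34153041-34153190 on the plus strand for H2-DMb1.
H2-Aa: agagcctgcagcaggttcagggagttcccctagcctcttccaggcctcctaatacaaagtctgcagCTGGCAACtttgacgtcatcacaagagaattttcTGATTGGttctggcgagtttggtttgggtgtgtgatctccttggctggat
H2-Eb1: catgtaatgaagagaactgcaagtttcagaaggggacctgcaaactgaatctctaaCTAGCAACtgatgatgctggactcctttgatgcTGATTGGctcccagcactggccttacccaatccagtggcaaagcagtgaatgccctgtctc
H2-DMb1: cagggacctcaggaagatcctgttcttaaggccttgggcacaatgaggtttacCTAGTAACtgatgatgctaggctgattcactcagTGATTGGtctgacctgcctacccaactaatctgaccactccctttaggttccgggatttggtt

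Both sets of letters were chosen after these promoters had been read, so their match is a description. They were searched on both strands in the 250 bases before each start, and they do not overlap each other. The gap between them was 26 bases in H2-Aa, 25 in H2-Eb1 and 26 in H2-DMb1. Of 32851 promoter entries 7.23% held TGATTGG, 10.9% held CTNGNAAC and 0.0335%, or 11 entries of 9 genes, held both in this order with 15 to 30 bases between. H2-Ob, which encodes a chain of the inhibitory heterodimer H2-O, was another of the 9 genes. No match of either set was found in the windows of H2-DMa and Ctss, which says only that these letters are absent there. The H2-DMa windows, printed as 34122682 to 34122831 and 34125368 to 34125517, lie within the span of that gene. Whether either precedes the H2-DMa transcript that was measured was not examined. Promoter entries of 5 of the 8 members were used. Entries on chromosome 18, which holds Cd74, were left out when the members' windows were taken. No entry was held for H2-Ab1 and Ciita, so their promoters were not searched and they could not be among the 9 genes. The shares were taken over all entries held. Cd74 was not among the 9 genes, and whether an entry for it was held was not examined.

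Values are FPKM, that is, fragments scaled to transcript length and to the number of mapped fragments. Srebf1, the targeted gene, had 63.7 and 58.2 FPKM in WT replicates 1 and 2 and 8.63 and 6.97 FPKM in KO replicates 1 and 2 (log2 difference −2.82, limma adjusted p = 0.00172). It passed in 11 of 14 alternatives, and its limma adjusted p was 0.104 with no filter, 0.136 without WT replicate 1 and 0.0923 without WT replicate 2. The steps between low values implied about 20.5 to 22.7 M (mega) fragments per library. Hepatocyte markers were high, with Apoa1 at 7619 to 8880 FPKM, although Alb was listed at 0 in all 4 libraries. KO replicate 2 stood apart in acute phase genes. Saa1, a serum amyloid gene, had 65.8, 87.3 and 34.7 FPKM in WT replicate 1, WT replicate 2 and KO replicate 1 and 1244 FPKM in KO replicate 2. Values without that library are therefore given for the members.

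The comparison of KO with WT asks how the class II genes differ in refed liver without SREBP1c. The chain genes H2-Aa, H2-Ab1 and H2-Eb1, the invariant chain gene Cd74 and the chaperone gene H2-DMb1 were higher in each KO library than in either WT library, by 1.44 to 2.05 times in the group means. H2-DMa, Ctss and Ciita overlapped between the groups. None of the members passed the threshold of an adjusted p under 0.05 over the 9820 genes tested. Such calls made up 0.0713% of genes tested, or 7 genes, with 0.0102% higher and 0.0611% lower in KO. At an unadjusted limma p under 0.05, 5 of the 7 members tested were higher and none lower in KO, where 4.50% of all genes tested were higher and 3.25% lower.

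Groups did not overlap, with KO higher, in 5 of the 8 members and in 22.4% of all genes tested. No member was lower in each KO library than in either WT library, which 16.4% of genes tested were. The median log2 difference of the 7 members tested was 0.70, against 0.02 over all genes tested. A difference at least that large was found in 0.774% of genes tested. Since the members were chosen with earlier results of these data known, these shares describe the members and test nothing. With 2 libraries against 2, an exact permutation test could not give a two-sided p below 0.333, so none was run on single genes.

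**Figure D1:**
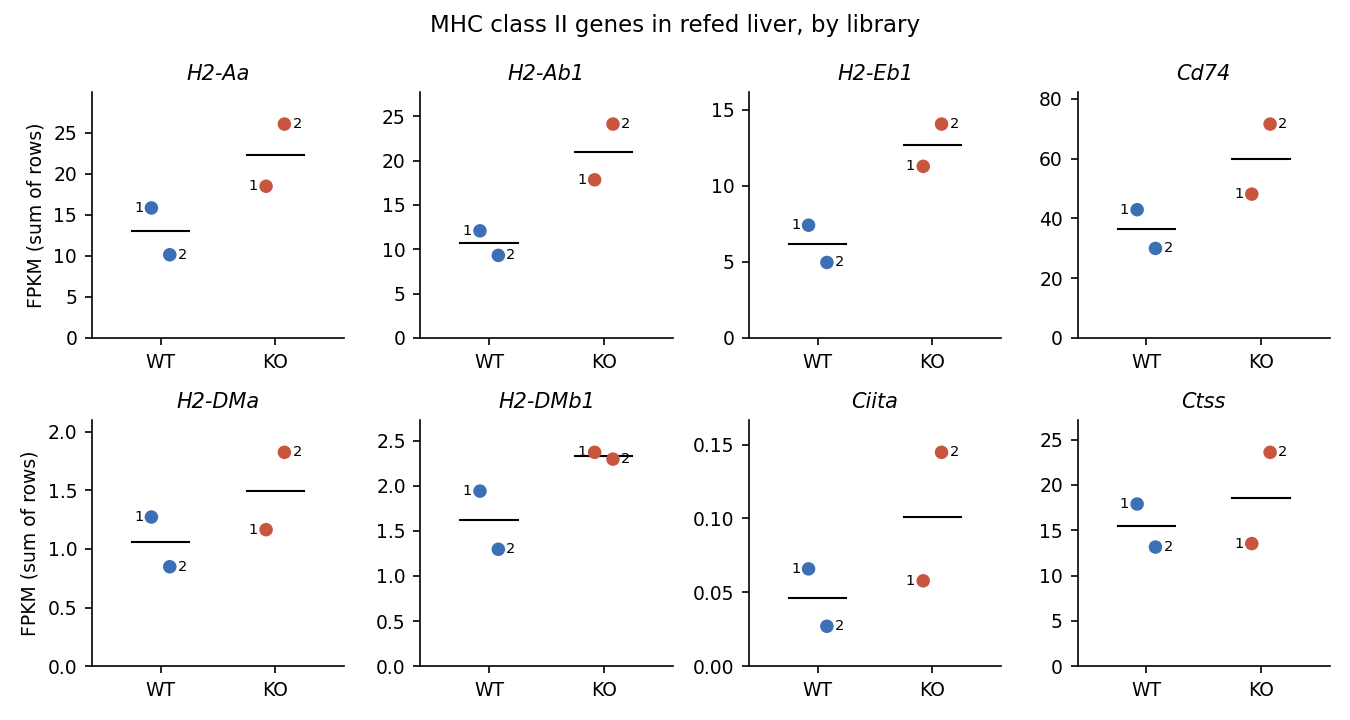
FPKM of the 8 class II genes (vertical axes from 0, each gene on its own scale) in the WT (blue) and KO (red) libraries, numbered by replicate, with a line at each group mean. H2-Aa, H2-Ab1, H2-Eb1, Cd74 and H2-DMb1 do not overlap between the groups, while H2-DMa, Ciita and Ctss do.

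The chain genes carry the peptide-binding groove. H2-Aa encodes the alpha chain of the I-A molecule (gene 14960, chromosome 17, 34282744 to 34287823, mm10). It had 15.8 and 10.1 FPKM in WT replicates 1 and 2 and 18.5 and 26.1 FPKM in KO replicates 1 and 2, or 13.0 ± 4.03 against 22.3 ± 5.36 FPKM (SD, n = 2 each). The lower KO library was 1.17 times the higher WT library, a smaller step than the 1.56 times between the WT libraries themselves. The log2 difference, taken as KO minus WT after adding 1 to each FPKM, was 0.75 with a standard error of 0.24 and a 95% interval from 0.15 to 1.34 (limma adjusted p = 0.568).

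H2-Ab1, the I-A beta chain gene (gene 14961, chromosome 17, 34263227 to 34269418), had 12.1 and 9.31 FPKM in WT liver against 17.8 and 24.1 FPKM in KO liver. Its group means were 10.7 ± 1.96 and 21.0 ± 4.44 FPKM (SD, n = 2 each), 1.96 times higher in KO. The lower KO library was 1.48 times the higher WT library, and the WT libraries differed by 1.30 times. Its log2 difference was 0.91 (SE 0.18, 95% interval 0.45 to 1.36, limma adjusted p = 0.298).

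H2-Eb1, the beta chain gene of the I-E molecule (gene 14969, chromosome 17, 34305867 to 34316674), showed the largest fold of the 7 members tested. It had 7.41 and 4.96 FPKM in WT liver against 11.3 and 14.1 FPKM in KO liver, or 6.19 ± 1.73 against 12.7 ± 1.97 FPKM (SD, n = 2 each), 2.05 times higher in KO. The log2 difference was 0.94 (SE 0.19, 95% interval 0.47 to 1.42, limma adjusted p = 0.308). H2-Ea, whose product would pair with it, was listed at 0 in all 4 libraries.

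Cd74 (gene 16149, chromosome 18) encodes the invariant chain, which fills the groove until peptide is loaded. It was the most abundant member per length in every library, with 42.9 and 29.9 FPKM in WT liver against 48.1 and 71.5 FPKM in KO liver. The means were 36.4 ± 9.16 and 59.8 ± 16.6 FPKM (SD, n = 2 each), 1.64 times higher in KO. KO replicate 1 lay only 1.12 times above WT replicate 1, while the WT libraries differed by 1.43 times. The log2 difference was 0.70 (SE 0.24, 95% interval 0.11 to 1.29, limma adjusted p = 0.571).

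The table held both invariant chain transcripts. NM_010545, whose protein has 215 residues, supplied 81.1% and 81.8% of the Cd74 FPKM in WT and 80.7% and 80.5% in KO. NM_001042605, with 279 residues, is the longer form that carries an extra thyroglobulin-type domain, and it supplied 18.9% and 18.2% in WT against 19.3% and 19.5% in KO. The shares thus stayed within a narrow range while the Cd74 level differed by 2.39 times between WT replicate 2 and KO replicate 2. How the program divided fragments between these transcripts is not given in the sources used here.

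H2-DM is the heterodimer that exchanges the invariant chain remnant for peptide, and its genes were the least abundant members after Ciita. H2-DMb1 (gene 14999, chromosome 17, 34153191 to 34160229) had 1.94 and 1.30 FPKM in WT liver against 2.37 and 2.29 FPKM in KO liver. KO was higher in both libraries, by 1.44 times in the means (log2 difference 0.36, SE 0.15, 95% interval 0.00079 to 0.72, limma adjusted p = 0.644). H2-DMa, the partner chain gene (gene 14998, chromosome 17, 34119693 to 34139101), had 1.27 and 0.848 FPKM in WT liver against 1.16 and 1.82 FPKM in KO liver. KO replicate 1 was below WT replicate 1, so the groups overlapped (log2 difference 0.27, SE 0.17, 95% interval −0.16 to 0.70, limma adjusted p = 0.753). Values of H2-DMa rest on about 29 to 62 fragments per library and those of H2-DMb1 on about 38 to 76, against about 778 to 1853 for Cd74, and both genes lie near the filter of a mean of 1 FPKM.

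Ctss encodes cathepsin S, which cuts the invariant chain down to the fragment left in the groove (gene 13040, chromosome 3). It had 17.9 and 13.1 FPKM in WT liver against 13.5 and 23.6 FPKM in KO liver, so that KO replicate 1 lay between the WT libraries and KO replicate 2 above both. The difference of 0.21 on the log2 scale (SE 0.27, 95% interval −0.45 to 0.87, limma adjusted p = 0.887) was smaller than the spread between the libraries. One of its 2 rows, NM_001267695, held 8.83% and 14.0% of the gene's FPKM in WT, 5.38% in KO replicate 2 and under 1% in KO replicate 1.

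Ciita, the coactivator gene (gene 12265, chromosome 16), did not reach the filter and was not tested. Its 5 rows summed to 0.0658 and 0.0270 FPKM in WT liver against 0.0578 and 0.145 FPKM in KO liver, which corresponds to about 2 to 12 fragments per library. The row NM_001243761 held over 99% of this in every library. The group means differed by 2.18 times on these few fragments. With no filter its log2 difference was 0.07 (limma adjusted p = 0.800). Adding 1 to values this low brings any log2 difference near 0, so 0.07 does not show equal levels. At this depth a difference between the groups was not detectable.

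The 4 most abundant differing members shared one order of libraries. H2-Aa, H2-Ab1, H2-Eb1 and Cd74 were each lowest in WT replicate 2, then WT replicate 1, then KO replicate 1, and highest in KO replicate 2. That order was found in 5.86% of all genes tested. Neighbours in the order differed by as little as 1.12 times (Cd74, WT replicate 1 and KO replicate 1), within the spread of either group. The H2-Eb1 to H2-Ab1 ratio of FPKM was 0.614 and 0.533 in WT against 0.633 and 0.583 in KO, and the Cd74 to H2-Ab1 ratio was 3.55 and 3.22 in WT against 2.70 and 2.97 in KO. Cd74 was thus lower relative to H2-Ab1 in both KO libraries. Against Ctss and H2-DMa, whose groups overlapped, H2-Ab1 was higher in both KO libraries. No ratio to Ciita was taken. Its ratio to Ctss was 0.675 and 0.708 in WT against 1.32 and 1.02 in KO, and its ratio to H2-DMa was 1.39 times higher in the means. These ratios were not tested.

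**Figure D2:**
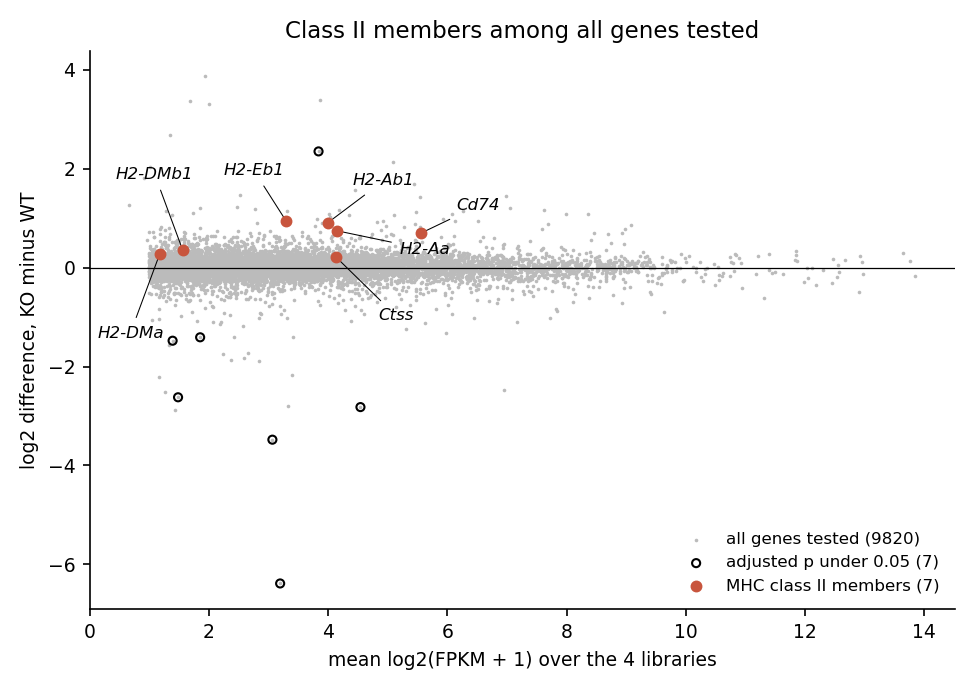
Log2 difference (KO minus WT) against the mean log2(FPKM + 1) over the 4 libraries for the 9820 genes tested (grey), with the 7 genes past the threshold circled in black and the 7 class II members tested in red. The chain genes and Cd74 lie at 0.70 to 0.94, and none of the members is circled.

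Without KO replicate 2, the library with high acute phase genes, 5 of the 7 members tested were still higher in KO than in both WT libraries, where 39.1% of all genes tested were. Their median difference was then 0.41. H2-Ab1 was 0.70 and H2-Eb1 0.79 higher on the log2 scale in KO replicate 1 alone, while Cd74 was 0.41 higher. Ctss turned to −0.17 and H2-DMa stood at 0.08. Without KO replicate 1 the limma adjusted p was 0.0125 for H2-Ab1, 0.0303 for H2-Eb1 and 0.0348 for Cd74, in a fit where 306 genes passed and the lone KO library was assumed to vary like the WT libraries. H2-Ab1, H2-Eb1 and Cd74 thus passed in 1 of 14 alternatives each. Without WT replicate 2, the lower WT library for every member, the differences of all members tested fell. They were 0.73 for H2-Ab1, 0.69 for H2-Eb1, 0.45 for H2-Aa and 0.44 for Cd74. H2-DMb1 stood at 0.18, H2-DMa at 0.12 and Ctss at 0.00048.

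The class II pathway list held 23 other genes. Of the 17 tested, 4 were higher in both KO libraries and none lower, against 22.4% and 16.4% of all genes tested. None of the 17 passed, and their median was 0.09. The largest difference among them, 0.32 for March8, was below those of H2-Aa, H2-Ab1, H2-Eb1, Cd74 and H2-DMb1 and above those of H2-DMa and Ctss. This scale understates changes of low genes such as H2-DMa. In the group means H2-DMa was 1.41 times higher in KO and March8 1.26 times. March8, a membrane ubiquitin ligase gene whose family removes class II from the cell surface, had the smallest p of the list, with 18.5 and 19.1 FPKM in WT liver against 23.7 and 23.7 FPKM in KO liver (log2 difference 0.32, limma adjusted p = 0.527). Ifi30, the lysosomal thiol reductase gene that unfolds antigens, had 9.79 and 9.40 FPKM in WT liver against 10.7 and 13.5 FPKM in KO liver (0.30, limma adjusted p = 0.645). Among the cathepsins, Ctsb, Ctsd, Ctsl, Ctsz and Ctsh differed by −0.05 to 0.09 on the log2 scale. The enhanceosome genes did not pass either: Rfx5 differed by −0.07, Rfxap by 0.11, Rfxank by 0.13, Creb1 by 0.09, Nfya by 0.23, Nfyb by 0.02 and Nfyc by −0.09. H2-Oa, H2-Ob, H2-Eb2, H2-DMb2 and March1 stayed below the filter. The chains of the inhibitory heterodimer H2-O went opposite ways at very low levels. H2-Ob had 0.0494 and 0.0720 FPKM in WT liver against 0.148 and 0.127 FPKM in KO liver. H2-Oa had 0.141 and 0.154 FPKM in WT liver against 0.0939 FPKM in KO replicate 1 and was listed at 0 in KO replicate 2.

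Class I presentation, which displays cytosolic peptides on nearly all cells, was given for comparison. All 19 genes were tested and none passed, with a median of 0.08. In both KO libraries 5 were higher and 1 lower, against 22.4% and 16.4% of all genes tested. B2m, the class I light chain gene, had 1474 and 1492 FPKM in WT liver against 1469 and 1546 FPKM in KO liver. H2-K1 had 533 and 566 FPKM in WT liver against 527 and 618 FPKM in KO liver. The smallest p belonged to Psmb8, an immunoproteasome subunit gene, with 16.0 and 15.3 FPKM in WT liver against 18.7 and 21.0 FPKM in KO liver (log2 difference 0.33, limma adjusted p = 0.570).

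**Figure D3:**
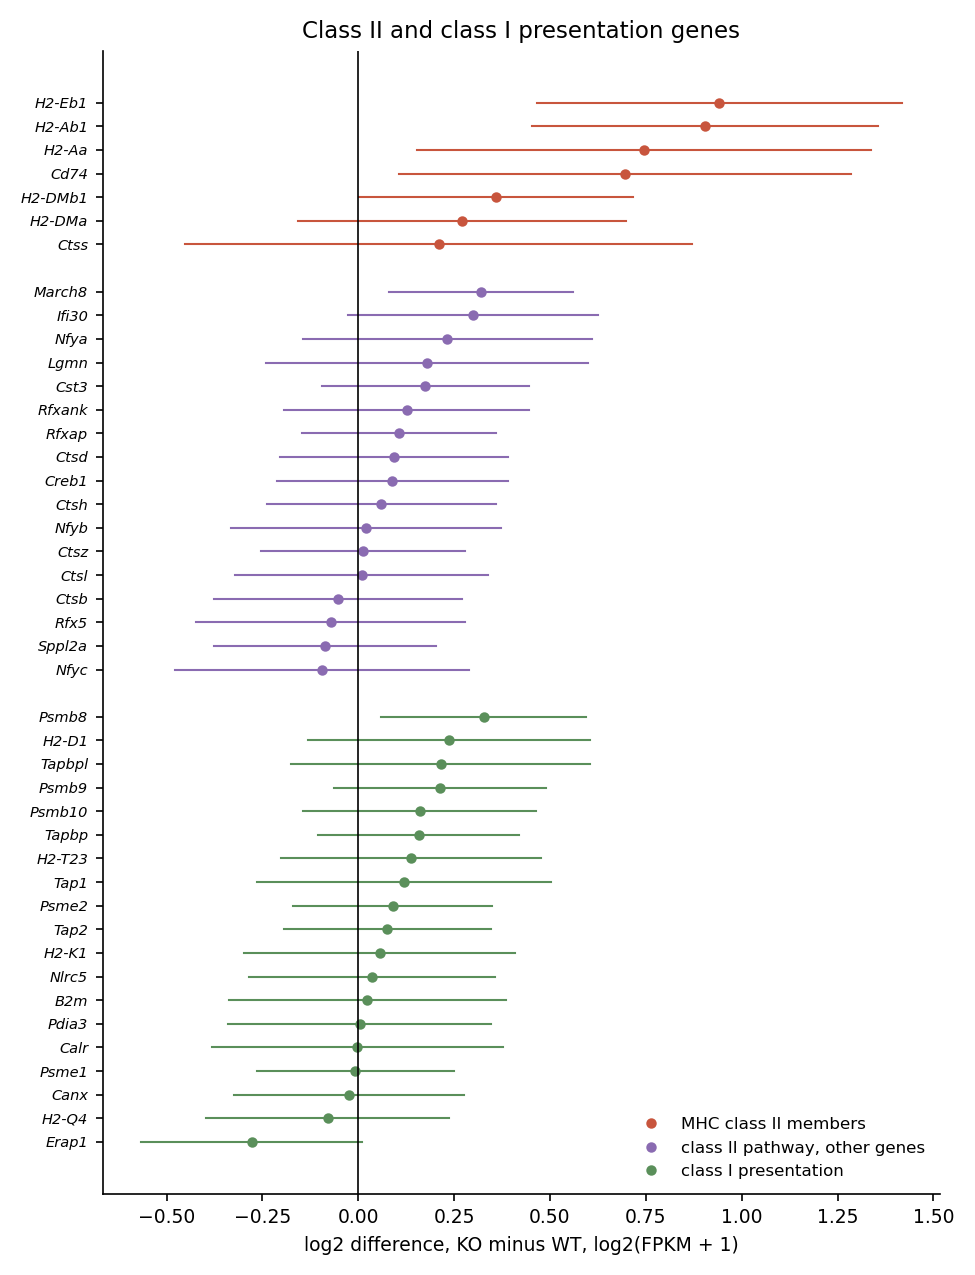
Log2 difference (KO minus WT, horizontal axis) with its 95% interval for the class II members tested (red, 7 genes), other class II pathway genes (purple, 17) and class I genes (green, 19). The 4 genes at the top, H2-Eb1, H2-Ab1, H2-Aa and Cd74, lie at 0.70 to 0.94, and no other gene shown exceeds 0.36.

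Psmb8 lies within the class II region itself. Between H2-Oa and H2-Eb1 (chromosome 17, 34092379 to 34316674) the table held 13 genes, 5 of them members. Of the other 8, 5 were tested and none passed, with a median difference of 0.20. Of these 5, 3 were higher in both KO libraries, against 22.4% of all genes tested. The 5 were Brd2, Psmb9, Tap1, Psmb8 and Tap2, at 0.20, 0.21, 0.12, 0.33 and 0.08. This region was chosen after the members' values were seen.

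Interferon gamma is the classical inducer of class II genes. Ifng was listed at 0 in every library. Of 15 genes of its axis tested, none passed and 5 were higher in both KO libraries, against 22.4% of all genes tested. The median difference of the 15 was 0.12, or −0.09 without KO replicate 2. Igtp, an interferon-inducible GTPase gene, had the largest difference of the list, with 13.1 and 8.28 FPKM in WT liver against 21.2 and 23.4 FPKM in KO liver (log2 difference 1.03, limma adjusted p = 0.298). Irf8, a transcription factor gene of the dendritic cell and macrophage lineage, had 1.17 and 0.78 FPKM in WT liver against 1.54 and 1.72 FPKM in KO liver (0.42, limma adjusted p = 0.563), and Gbp2 had 1.53 and 1.20 FPKM in WT liver against 1.80 and 2.71 FPKM in KO liver (0.45, limma adjusted p = 0.607). Irf1 and Cxcl10 overlapped between the groups, at log2 differences of −0.23 and −0.25. Costimulatory genes were all below the filter, Cd86 being highest at 0.679 to 0.954 FPKM.

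In bulk liver, more class II-bearing cells and more RNA per cell cannot be told apart. Of the 12 Kupffer cell and macrophage markers tested, 2, Timd4 and C1qa, were higher in both KO libraries, against 22.4% of all genes tested. None of these markers passed. Their summed level was 184 and 153 FPKM in WT liver against 158 and 257 FPKM in KO liver, and their median difference of 0.18 became −0.11 without KO replicate 2. Clec4f, a Kupffer cell receptor gene, had 27.0 and 20.6 FPKM in WT liver against 19.5 and 35.2 FPKM in KO liver. Timd4, a phosphatidylserine receptor gene of resident Kupffer cells, had 1.93 and 1.62 FPKM in WT liver against 2.47 and 4.10 FPKM in KO liver (log2 difference 0.60, limma adjusted p = 0.570). C1qa, a complement gene, had 24.9 and 24.2 FPKM in WT liver against 26.4 and 39.5 FPKM in KO liver (0.38, limma adjusted p = 0.685). KO replicate 1 thus had the lowest Clec4f of the 4 libraries but more Timd4 and C1qa than either WT library. The H2-Ab1 to Clec4f ratio was 0.447 and 0.451 in WT against 0.913 and 0.684 in KO, while the Ctss to Clec4f ratio was 0.662 and 0.637 in WT against 0.692 and 0.670 in KO.

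Pan-leukocyte genes summed to 37.2 and 28.7 FPKM in WT liver against 33.3 and 52.4 FPKM in KO liver. The median difference of the 5 genes tested was 0.21, or −0.08 without KO replicate 2. Of the 5, 2 were higher in both KO libraries, Coro1a and Cd52, against 22.4% of all genes tested. Against Tyrobp, a myeloid signalling adaptor gene, the ratio of H2-Ab1 was 0.762 and 0.732 in WT against 1.33 and 1.09 in KO, and that of Cd74 was 2.71 and 2.35 in WT against 3.60 and 3.22 in KO. Ctss relative to Tyrobp was 1.13 and 1.03 in WT against 1.01 and 1.06 in KO. The shift of H2-Ab1 depended on the gene it was set against. In the group means its ratio was 1.78 times higher in KO against Clec4f, 1.62 times against Tyrobp, 1.46 times against Lyz2 and 1.24 times against Cd52. That of Cd74 to Lyz2 was 1.23 times higher. Sinusoidal endothelial markers had a median difference of 0.08 (9 genes tested, none passed), or −0.06 without KO replicate 2. They summed to 72.0 and 75.9 FPKM in WT liver against 76.4 and 92.1 FPKM in KO liver. Clec4g, Lyve1 and Pecam1, or 3 of the 9, were higher in both KO libraries, against 22.4% of all genes tested. Clec4g had 29.5 and 32.1 FPKM in WT liver against 36.0 and 41.3 FPKM in KO liver (log2 difference 0.32, limma adjusted p = 0.609). Lyve1 had 2.03 and 1.92 FPKM in WT liver against 2.39 and 4.12 FPKM in KO liver (0.49, limma adjusted p = 0.644).

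Dendritic cell markers were all below the filter, at most 0.914 FPKM. Their sum was 1.64 and 1.34 FPKM in WT liver against 2.41 and 2.13 FPKM in KO liver, and 6 of the 9 were higher in both KO libraries. Of all genes below the filter but above 0 in at least 1 library, 19.7% were. Clec9a, of cross-presenting dendritic cells, had 0.162 and 0.146 FPKM in WT liver against 0.253 and 0.297 FPKM in KO liver, and Batf3, their transcription factor gene, 0.380 and 0.417 FPKM in WT liver against 0.914 and 0.752 FPKM in KO liver. Zbtb46, a transcription factor gene of classical dendritic cells, overlapped at 0.691 and 0.517 FPKM in WT liver against 0.658 and 0.543 FPKM in KO liver, as did Cd209a at 0.157 and 0.0686 FPKM in WT liver against 0.126 and 0.0344 FPKM in KO liver. Flt3 was listed at 0 in WT replicate 2 and reached 0.0389 FPKM at most. B cell markers summed to 1.48 and 1.53 FPKM in WT liver against 1.22 and 2.07 FPKM in KO liver, with Pax5 listed at 0 in 1 library of each group and Ms4a1 lower in both KO libraries. T and NK cell markers were all below the filter too, at most 0.773 FPKM. Of the monocyte markers tested, Plac8 had 6.98 and 5.85 FPKM in WT liver against 7.22 and 9.39 FPKM in KO liver. Lyz2 overlapped, with 42.5 and 28.7 FPKM in WT liver against 40.2 and 54.1 FPKM in KO liver. Of the neutrophil markers S100a9 had 3.97 and 5.65 FPKM in WT liver against 3.04 and 13.9 FPKM in KO liver. The part of these cells in the members' differences was not tested.

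**Figure D4:**
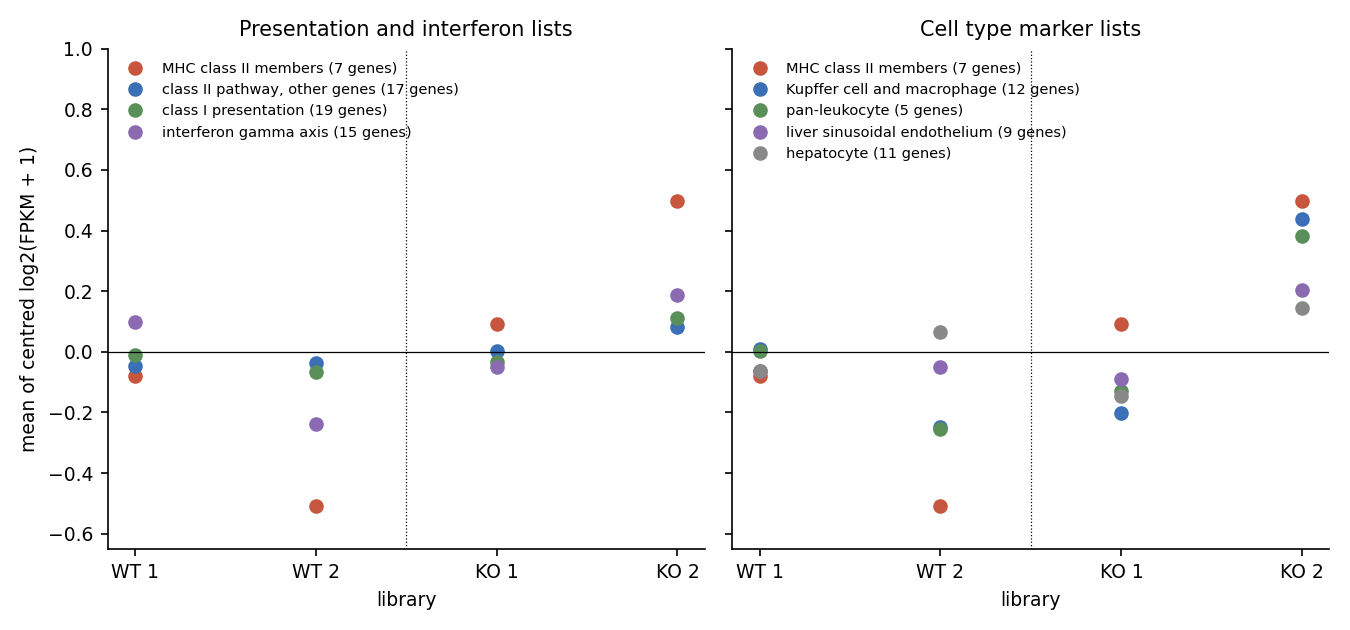
Mean of the centred log2(FPKM + 1) values (vertical axis) of each gene list in the 4 libraries (horizontal axis), for presentation and interferon lists on the left and cell type marker lists on the right. The class II members lie at −0.08 and −0.51 in WT against 0.09 and 0.50 in KO. Kupffer cell and macrophage markers lie at 0.01, −0.25, −0.20 and 0.44 in the same order of libraries.

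The genes whose profile over the 4 libraries was most like the mean of the members were found by the Euclidean distance between centred log2(FPKM + 1) values. Cd52, a leukocyte surface glycoprotein gene, was nearest at a distance of 0.0384, with 9.18 and 6.28 FPKM in WT liver against 10.3 and 13.9 FPKM in KO liver. It was followed by Ptp4a1 (0.129), a phosphatase gene, Ddit3 (0.155), which encodes the stress transcription factor CHOP, Fam13b (0.161) and Foxa3 (0.167), a hepatocyte transcription factor gene. The members' own distances to their mean ran from 0.161 for Cd74 to 0.455 for Ctss. With 4 libraries many genes can come this close, and no test was made.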

How the data were processed

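Liver RNA of 2 WT and 2 KO libraries was compared, with groups and replicate numbers from the sample titles. The authors deposited 1 FPKM table with a row for each RefSeq transcript, per the file headers (33170 rows of 23920 genes). Bowtie, TopHat and the mm10 build are named in the submitters' processing notes. Which program made the FPKM values, from which annotation and with what strand setting, is not given in the sources used here. Rows at 0 in all libraries numbered 8874 and included Alb, so a 0 is given only as listed at 0.

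FPKM was summed over the rows of each gene. Genes with a mean of at least 1 FPKM were tested with limma 3.58.1 (R 4.3.3, trended variance prior) on log2(FPKM + 1), a scale that understates changes of low genes. P-values were adjusted by Benjamini-Hochberg over all genes tested, with a threshold of 0.05. Folds are ratios of group means. The test was checked on simulated data. Coordinates are from a RefSeq table of the same assembly. Fragment numbers are approximate, since with GENCODE transcript lengths only 52.7% to 56.0% of low values were within 0.1 of a whole number of fragments. No count test was run for that reason.

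The members, lists and tests were chosen with earlier results of these data known. The genes named are the members, Srebf1, the 5 genes nearest in profile and, of each list, those with the smallest p or a role that bears on the members. Ratios, the class II region and the promoter letters were chosen after values or sequences were seen. The alternatives changed the pseudocount (0.1 or 0.5), the filter (none or 5 FPKM), the scaling (upper quartile or quantile), the variance prior (no trend, or robust), the summing of rows, the threshold (0.1) and the libraries (each left out in turn, or the replicate number as a block).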

Additional observations from a re-analysis of the deposited data

How the results depend on the processing

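The members that were higher in each KO library than in either WT library numbered 5 at first. They were also 5 under the other scalings and pseudocounts and with rows as deposited. With a minimum mean of 5 FPKM they were 4 of the 5 members left. With 1 library left out they numbered 5 to 7, where 32.6% to 41.6% of all genes tested were higher. The median difference of the members ran from 0.41 to 0.98 with 1 library left out and from 0.53 to 0.75 under the other alternatives. The difference of Ctss turned to −0.17 without KO replicate 2, and its highest value, 0.59, came with KO replicate 1 left out. The count of all genes past the threshold, 7, became 11 with a pseudocount of 0.1, 0 with no filter (where 16520 genes were tested), 3 with a minimum mean of 5 FPKM, 4 with quantile normalization, 15 with a robust prior and 1 to 306 with 1 library left out. The cause was not tested. With the replicate number as a block it was 19, and the block changed no call of a member. Deviations of same-numbered libraries correlated at 0.167 over genes, and with 2 pairs the numbers were not taken as pairing the samples. A left-out library leaves 1 library in a group, which is assumed to vary like the other group. Ciita had too few fragments for a comparison.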

Other observations

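At an unadjusted limma p under 0.05, 2 of 3 bile duct and 1 of 6 stellate cell markers tested were higher in KO. Of the 11 hepatocyte markers tested, 1 was lower and 0 were higher. Over all genes tested, 4.50% were higher and 3.25% lower. These 4 genes are given here. Spp1, the osteopontin gene of bile duct cells and macrophages, had 21.3 and 20.2 FPKM in WT liver against 45.5 and 37.0 FPKM in KO liver (log2 difference 0.95, limma adjusted p = 0.136). Krt19, a bile duct keratin gene, had 0.889 and 0.861 FPKM in WT liver against 2.23 and 1.28 FPKM in KO liver (0.53, limma adjusted p = 0.570). Colec11, a collectin gene of stellate cells, had 8.08 and 9.22 FPKM in WT liver against 11.9 and 13.3 FPKM in KO liver (0.50, limma adjusted p = 0.402). Cps1, the hepatocyte gene of the first step of the urea cycle, was the lower one, with 619.5 and 621 FPKM in WT liver against 362 and 399.6 FPKM in KO liver (−0.70, limma adjusted p = 0.246). None of the 4 passed the threshold. Sox9, the other bile duct marker tested, overlapped, with 2.20 and 1.44 FPKM in WT liver against 1.18 and 2.09 FPKM in KO liver (log2 difference −0.11).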
